A study of Drosophila melanogaster with 3 samples.

Results

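Levels of mRNA were examined for 9 genes of germline stem cells and of the piRNA pathway, chosen by name: *vas*, *bam*, *bgcn*, *nos*, *zpg*, *piwi*, *aub*, *AGO3* and *tj*. All 9 were found by their own symbol among the 15185 entries of the deposited expression table. The RNA came from whole bodies of male 3rd instar larvae, sequenced as 1 library per genotype. Canton S served as wild type and was set beside the strain mxcG43, which carries a hypomorphic allele of *multi sex combs* (*mxc*) without a tumour phenotype, and beside the strain mxcmbn1, in which the lymph gland, the larval haematopoietic organ, forms a tumour. The mxcmbn1 allele is recessive lethal, was taken from a stock that also carries the *white* allele w1, and was used after a duplication covering *mxc* had been removed. The larvae were male because *mxc* is X-linked, so that each carried a single copy of the mutant gene. Levels are given in FPKM, the fragments of a gene per kilobase of its exons and relative to all mapped fragments of the library. They allow for gene length and library depth, but not for a different make-up of the libraries. Both comparisons with wild type use the same wild-type library. With no second library of a genotype, no difference reported here has a replicate check, no p-value is given, and neither the order of the genes in a library nor a difference between genotypes can be set against the spread between samples.

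The gonad of a male larva holds germline stem cells, the spermatogonia and spermatocytes that descend from them, and somatic cells that enclose them. Stem cells are kept by a signal from the somatic hub and by translational repressors, and among their descendants Bam ends the proliferation of spermatogonia. In the same cells, small RNAs called piRNAs guide proteins of the PIWI clade of Argonautes to the transcripts of transposons, and the nuage, a perinuclear body that contains Vasa, is a place where piRNAs are made. Larvae of some *mxc* alleles are known from earlier work to lack germ cells. In RNA of a whole larva, fewer cells of a type and less RNA per cell cannot be told apart.

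The gene mutated in these strains, *mxc*, had an FPKM of 1.96 in wild type, 1.94 in mxcG43 and 3.56 in mxcmbn1. The relative depth of the libraries was read from genes with few reads, whose FPKM values stand in ratios of small whole numbers. Relative to wild type, the depth was 1.36 in mxcmbn1 and 0.970 in mxcG43. The same step gave whole numbers of reads for *bgcn*, *nos*, *zpg* and *tj*. For the other 5 genes the reads were estimated from the FPKM and the transcript length, at 10.1 wild-type reads for an FPKM of 1 over 1 kb, and no interval is given. The 95% Clopper-Pearson intervals on ratios cover counting error between the libraries only.

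The 9 genes did not differ from wild type in one direction. In mxcmbn1 larvae, 3 genes were at least 2-fold higher than in wild type, namely *nos*, *zpg* and *piwi*, and 3 were at least 2-fold lower, namely *vas*, *bam* and *bgcn*. *aub* and *AGO3* lay within 2-fold, and *tj* was under an FPKM of 1 in every library and was not counted. Of all 11982 entries with an FPKM of at least 1 in either library, 15.5% were at least 2-fold higher in mxcmbn1 and 25.8% were at least 2-fold lower, against 3 and 3 of the 8 genes counted. The median log2 ratio, with 0.1 added to each FPKM, was 0.76 over the 9 genes and -0.06 over all counted entries. In mxcG43 only *nos* was counted as higher than in wild type, and *vas* and *bam* were counted as lower, 1 and 2 of 7 genes, where 6.42% and 6.80% of 11876 entries were called in these directions. The median log2 ratio of the 9 genes was -0.05 there, equal to that of all counted entries to 2 decimals.

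**Figure D1:**
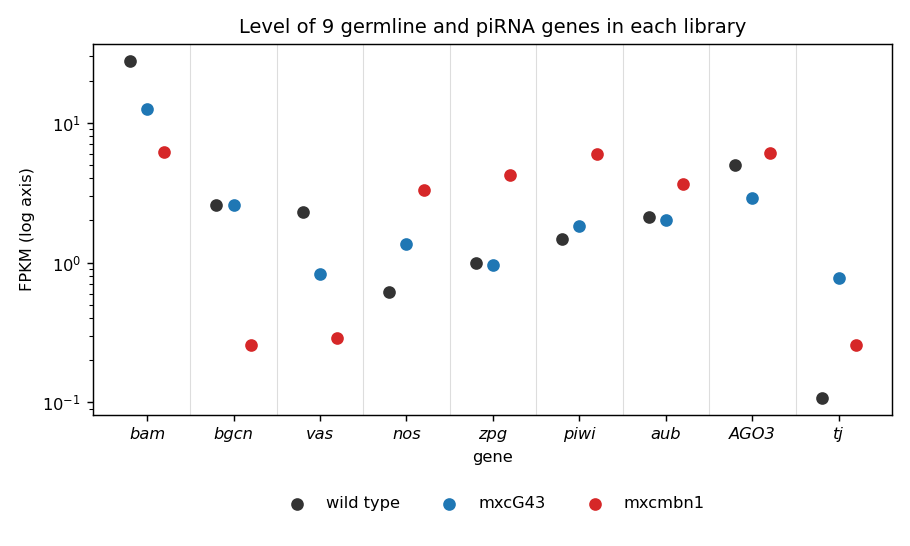
FPKM of each of the 9 genes (log axis) in the wild-type, mxcG43 and mxcmbn1 libraries, 1 point per library. *bam* is the highest gene in every library, at 27.7, 12.5 and 6.20, while *nos*, *zpg* and *piwi* are highest in mxcmbn1 and *vas* and *bgcn* are lowest there. The part of the overlapping gene *CG11854* in the level of *bam* was not tested.

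Most of the 9 genes were weakly expressed in whole larvae. In wild type their FPKM ran from 0.108 (*tj*) to 27.7 (*bam*) with a median of 2.12, and 8 of the 9 lay under the median of all entries, 6.76. In mxcG43, where that median was 6.52, 8 again lay under it, with *bam* above. In mxcmbn1 the median of all entries was 4.88 and 6 of the 9 lay under it, with *bam* (6.20), *AGO3* (6.10) and *piwi* (5.95) above. The order in wild type was *bam*, *AGO3*, *bgcn*, *vas*, *aub*, *piwi*, *zpg*, *nos* and *tj*. In mxcG43 it was *bam*, *AGO3*, *bgcn*, *aub*, *piwi*, *nos*, *zpg*, *vas* and *tj*. In mxcmbn1 it was *bam*, *AGO3*, *piwi*, *zpg*, *aub*, *nos*, *vas*, *tj* and *bgcn*, so that *bam* and *AGO3* led in all 3 libraries and *bgcn* went from the third place to the last. In BDGP6, 224 of the 1946 exon bases of *bam* overlap *CG11854*, and their part in this order was not tested.

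Among the genes that promote differentiation, *bam* (*bag of marbles*) encodes the factor that ends the proliferation of spermatogonia. The *bam* entry (XLOC_012132, BDGP5 3R from 21067771 to 21070884) reached an FPKM of 27.7 in wild type, 12.5 in mxcG43 and 6.20 in mxcmbn1. These levels correspond to about 545, 239 and 166 reads. The wild-type library was thus the highest and mxcmbn1 the lowest, with mxcmbn1 4.47-fold below wild type, mxcG43 2.21-fold below wild type, and mxcmbn1 2.02-fold below mxcG43. This interval of the table is shared with *CG11854*, a gene that was lower in the same order, at 299, 169 and 31.6. In the BDGP6 annotation the pair lie on opposite strands and 224 of the 1946 exon bases of *bam* overlap *CG11854*. How much those bases contribute to the level of *bam* was not tested.

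*bgcn* (*benign gonial cell neoplasm*) encodes a protein related to DExH-box helicases that acts together with Bam. The *bgcn* entry (XLOC_005895, 2R from 19740801 to 19746314) stood at an FPKM of 2.59 in wild type, 2.58 in mxcG43 and 0.256 in mxcmbn1, from 112, 108 and 15 reads. Only the mxcmbn1 library stood apart, 10.1-fold below wild type (95% interval 5.88 to 18.7) and 10.1-fold below mxcG43 (5.84 to 18.6). The ratio of mxcG43 to wild type was 0.995 (0.756 to 1.31). The entries of *bam* and *bgcn* did not keep one proportion, since within a library the level of *bam* was 10.7 times that of *bgcn* in wild type, 4.85 times in mxcG43 and 24.2 times in mxcmbn1. The part of *CG11854*, which overlaps *bam*, in this proportion was not tested. The gene *wibg* shares the interval with no exon base in common, and had an FPKM of 10.6, 7.29 and 12.4.

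*vas* (*vasa*) encodes a DEAD-box RNA helicase that marks germ cells from the pole cells of the embryo onwards and is a core part of the nuage. Its entry (XLOC_001012, 2L from 15061656 to 15074383) gave an FPKM of 2.31 in wild type, 0.823 in mxcG43 and 0.288 in mxcmbn1, or about 52, 18 and 8.9 reads. The level was lower in both mutants, 2.81-fold in mxcG43 and 8.01-fold in mxcmbn1, and mxcmbn1 was 2.85-fold below mxcG43. The estimated reads in mxcmbn1 are few, and the last comparison stays outside the counts because both levels are under an FPKM of 1. *vig*, which lies in the same interval on the opposite strand and shares no exon base with *vas*, did not follow *vas*, with an FPKM of 30.3, 29.8 and 57.6.

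The levels of *nos* and *zpg* went the other way. *nos* (*nanos*) encodes a zinc-finger protein that represses translation together with Pumilio and is needed to keep germline stem cells. The *nos* entry (XLOC_009918, 3R from 14979819 to 14988000) reached an FPKM of 0.619 in wild type, 1.36 in mxcG43 and 3.29 in mxcmbn1, from 15, 32 and 108 reads. It was the lowest in wild type and the highest in mxcmbn1, with ratios to wild type of 2.20 in mxcG43 (95% interval 1.16 to 4.37) and 5.31 in mxcmbn1 (3.08 to 9.82). The mxcmbn1 level was 2.41 times that of mxcG43 (1.61 to 3.70). Of its 2349 exon bases in BDGP6, 269 overlap *CG11779* on the opposite strand, whose FPKM of 13.5, 15.6 and 10.4 did not follow that of *nos*. Another 104 bases overlap *CG42358*, which the table joins with *CG42359* at an FPKM of 26.3, 22.3 and 31.9.

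*zpg* (*zero population growth*) encodes a germline innexin, the channel protein of the gap junctions through which early germ cells are coupled to their somatic neighbours. The *zpg* entry (XLOC_007909, 3L from 6596784 to 6601839) stood at an FPKM of 0.994 in wild type, 0.957 in mxcG43 and 4.25 in mxcmbn1, from 15, 14 and 87 reads. Wild type and mxcG43 were close, with a ratio of 0.963 whose interval runs from 0.430 to 2.14, and mxcmbn1 alone was higher, 4.28 times wild type (2.46 to 7.97) and 4.44 times mxcG43 (2.51 to 8.47). *CG8368* in the same interval shares no exon base with it and was lower in mxcmbn1, at 28.4, 20.9 and 12.0. Because *nos* and *zpg* were higher where *vas* was lower, their proportion differed widely between the libraries. The level of *nos* was 0.268 times that of *vas* in wild type, 1.66 times in mxcG43 and 11.4 times in mxcmbn1, and the level of *zpg* was 0.430, 1.16 and 14.7 times that of *vas*. These ratios within a library do not depend on how the libraries are scaled.

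**Figure D2:**
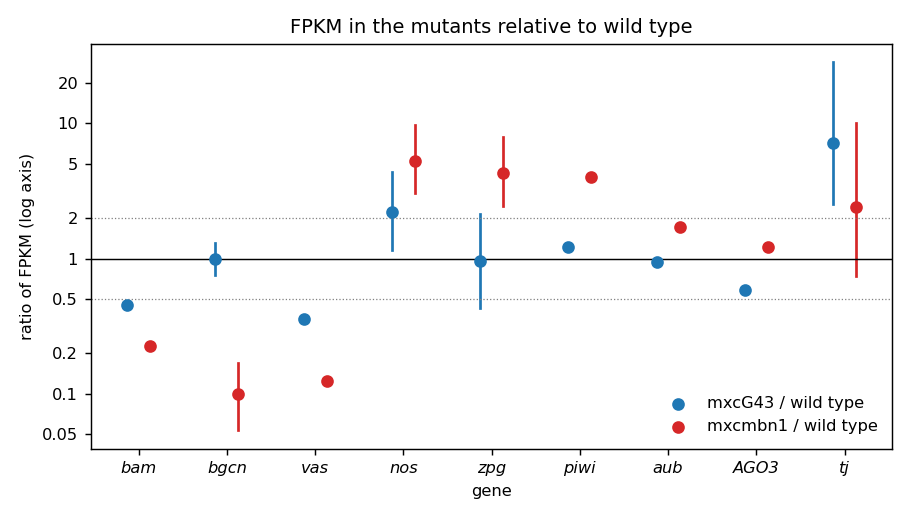
Ratio of FPKM in mxcG43 and in mxcmbn1 to wild type for the 9 genes (log axis), with the solid line at 1 and dotted lines at 2-fold. Bars are 95% counting intervals for the 4 genes with whole reads. The mxcmbn1 points lie from 0.0988 (*bgcn*) to 5.31 (*nos*), and the interval of *tj* in mxcmbn1 spans 1.

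The PIWI-clade proteins are the effectors of the piRNA pathway. Piwi acts in the nucleus, where it silences the transcription of transposons, and it works both in the germline and in the somatic cells of the gonad. The *piwi* entry (XLOC_002243, 2L from 10976769 to 10987416) gave an FPKM of 1.48 in wild type, 1.81 in mxcG43 and 5.95 in mxcmbn1, or about 45, 54 and 247 reads. Wild type and mxcG43 differed by 1.22-fold, and the mxcmbn1 level was 4.01 times that of wild type and 3.28 times that of mxcG43. *SCAR*, on the opposite strand, overlaps 191 of the 3073 exon bases of *piwi* in BDGP6 and was also higher in mxcmbn1, with an FPKM of 10.1, 12.9 and 23.8, a part in the *piwi* level that was not tested.

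Aubergine and Argonaute 3 act in the cytoplasm, where each cuts transcripts to make the piRNAs that load the other, the ping-pong cycle. The *aub* entry (XLOC_002244, 2L from 10997819 to 11001489) reached an FPKM of 2.12 in wild type, 2.01 in mxcG43 and 3.65 in mxcmbn1, or about 61, 56 and 141 reads, with no other entry in the interval. Its mxcmbn1 level was 1.72 times that of wild type, under the 2-fold used here. *AGO3* (XLOC_007477, 3L from 23547693 to 23682740, also alone in its interval) had an FPKM of 5.01, 2.91 and 6.10, or about 143, 81 and 236 reads. It was lowest in mxcG43, where the ratio to wild type was 0.581, and the mxcmbn1 library stood at 1.22 times wild type and 2.09 times mxcG43. Between the mutants, *nos*, *zpg*, *piwi* and *AGO3* were thus counted as higher in mxcmbn1 and *bam* and *bgcn* as lower, 4 and 2 of 7 genes counted. Of 12005 entries, 1776 (14.8%) were called higher and 3116 lower, and 40.7% in either direction.

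Both the sum and the make-up of the PIWI clade differed between the libraries. Added together, the 3 mRNAs reached an FPKM of 8.62 in wild type, 6.73 in mxcG43 and 15.7 in mxcmbn1. *AGO3* made up 58.2% of this sum in wild type, 43.2% in mxcG43 and 38.8% in mxcmbn1, while *piwi* made up 17.2%, 26.9% and 37.9%. The share of *aub* ranged from 23.3% to 29.8%. Relative to *aub*, the level of *piwi* was 0.698 in wild type, 0.904 in mxcG43 and 1.63 in mxcmbn1.

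**Figure D3:**
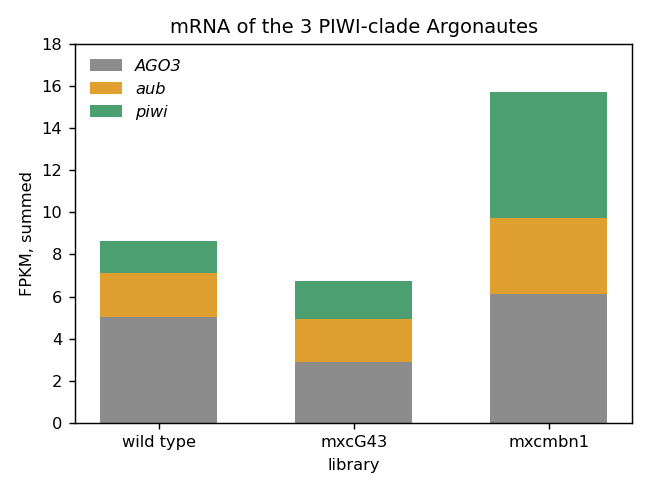
FPKM of *AGO3*, *aub* and *piwi* stacked for each library. The bars reach 8.62, 6.73 and 15.7, and the *piwi* segment goes from 1.48 in wild type to 5.95 in mxcmbn1 while the *AGO3* segment goes from 5.01 to 6.10.

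*tj* (*traffic jam*) encodes a Maf-family transcription factor of the somatic gonadal cells, which in the fly ovary promotes the expression of *piwi*. The *tj* entry (XLOC_001241, 2L from 19464267 to 19467758), alone in its interval, had an FPKM of 0.108 in wild type, 0.777 in mxcG43 and 0.258 in mxcmbn1, from 4, 28 and 13 reads. It was highest in mxcG43, at 7.22 times wild type (2.53 to 28.3) on 4 wild-type reads. The mxcmbn1 ratio of 2.40 had an interval from 0.741 to 10.1 that includes no change, and mxcmbn1 was 3.01-fold below mxcG43 (1.51 to 6.33). The order of *tj* over the libraries, on these few reads, was not that of *piwi*, which was highest in mxcmbn1. Any link between *tj* and *piwi* in these larvae was not tested.

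Of 28 further piRNA pathway genes, all matched in the table, 26 reached an FPKM of 1 in either wild type or mxcmbn1. In mxcmbn1, 6 of the 26 were at least 2-fold higher and none was at least 2-fold lower, where 15.5% and 25.8% of all counted entries were, with a median log2 ratio of 0.06 over the list and -0.06 over all counted entries. *tej*, which encodes a Tudor-domain protein of the nuage, had an FPKM of 0.509 in wild type, 0.577 in mxcG43 and 4.95 in mxcmbn1, from 10, 11 and 132 reads, a ratio of mxcmbn1 to wild type of 9.74 (95% interval 5.13 to 20.8). *BoYb*, a Tudor-domain helicase relative, had 0.531, 0.493 and 4.99 from 20, 18 and 255 reads, a ratio of 9.41 (5.96 to 15.7). These mRNAs were near their wild-type level in mxcG43 and stood apart in mxcmbn1 alone.

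*fs(1)Yb*, a relative of *BoYb* known from the somatic cells of the fly ovary, had an FPKM of 0.268, 0.138 and 2.04 from 10, 5 and 103 reads, and its mxcmbn1 level was 7.60 times that of wild type (3.97 to 16.3). *krimp*, the Tudor-domain scaffold that holds Aub and AGO3 together, had 1.93, 2.34 and 11.2, or 5.83 times wild type, on about 50 estimated wild-type reads. The other 2 genes were *moon* and *del*, which encode a germline transcription factor of piRNA source loci and a partner of the Rhino protein at those loci. *moon* (listed as *CG12721*, in an interval shared with 9 other entries) had an FPKM of 0.146, 0.601 and 3.12, but only about 1.2 estimated reads in wild type, so no fold is given. *del* was at 2.82, 4.14 and 5.66, 2.01 times wild type. In mxcmbn1 the levels of *tej* and *BoYb* thus lay between those of *zpg* (4.25) and *piwi* (5.95), and that of *krimp* above both.

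Most of the pathway lay close to wild type. The 4 lowest ratios of mxcmbn1 to wild type in the list were 0.710 for *Panx* (listed as *CG9754*), 0.754 for *Nbr*, 0.771 for the entry that joins *squ* with *grp*, and 0.775 for *mael*. *Panx* links Piwi to transcriptional silencing and had 134 reads in wild type and 129 in mxcmbn1, a ratio with an interval from 0.553 to 0.911. *qin*, left out because all its levels were under an FPKM of 1, had 0.675, 0.310 and 0.243. In mxcG43, 0 of 22 counted genes were at least 2-fold higher than in wild type and 2 were at least 2-fold lower, where 6.42% and 6.80% of all counted entries were. These were *rhi*, an HP1 relative that marks piRNA source loci, with 19 reads in wild type and 3 in mxcG43 (ratio 0.163, 0.0309 to 0.553), and *spn-E*, a nuage helicase, with 129 and 40 reads (0.320, 0.218 to 0.459).

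**Figure D4:**
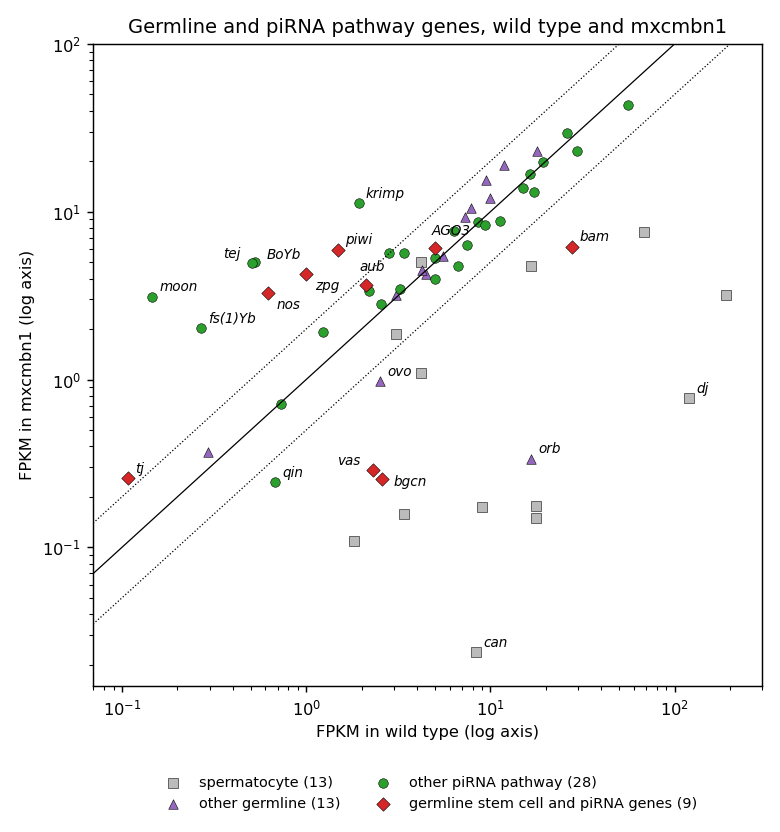
FPKM in mxcmbn1 against FPKM in wild type (log axes) for the 9 genes and for the further piRNA pathway, germline and spermatocyte genes, with the solid line at equality and dotted lines at 2-fold; *osk*, listed at 0 in wild type, is not drawn. *nos*, *zpg*, *piwi* and *tj* lie above the upper dotted line with *tej*, *BoYb*, *fs(1)Yb*, *krimp*, *moon* and *del*. *vas*, *bam* and *bgcn* lie below the lower one with *orb*, *ovo*, *qin* and 11 of 13 spermatocyte genes. *tj* and *qin* are under an FPKM of 1 in both libraries and were not counted.

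Of 14 other germline genes, 12 were counted in mxcmbn1, where 2 were at least 2-fold lower than wild type and 0 were higher. The number lower was no larger a share than the 25.8% of all counted entries, so the count does not set these genes apart, and the share of all counted entries that were higher was 15.5%. *orb*, an RNA-binding protein of the CPEB family, had an FPKM of 16.6 in wild type, 12.7 in mxcG43 and 0.338 in mxcmbn1, 49.1-fold below wild type. *ovo*, a zinc-finger transcription factor of the germline and epidermis, had 2.52, 4.57 and 0.978. The highest ratios in the list were 1.65 for *pum*, the partner of Nanos, 1.59 for *tut* (listed as *CG32364*), which acts with Bam and Bgcn, and 1.34 for *csul*, and the lowest after *orb* and *ovo* was 0.951 for *Phf7*. *osk*, which assembles the germ plasm of the egg, was listed at 0 in wild type and mxcG43 and at an FPKM of 0.123 in mxcmbn1, about 4.8 estimated reads.

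Markers of other cell types moved beside these genes. Of 13 spermatocyte genes, 11 were at least 2-fold lower in mxcmbn1 than in wild type and 0 were higher, where 25.8% and 15.5% of all counted entries were, and their summed FPKM was 466 in wild type, 317 in mxcG43 and 25.0 in mxcmbn1, with none of them at 0 in a library. The lowest ratios were 0.00284 for *can*, with 260 reads in wild type and 1 in mxcmbn1, 0.00642 for *dj* and 0.00840 for *fzo*, and the highest were 1.20 for *mia*, 0.604 for *tomb* and 0.286 for *twe*. The lower levels of *vas*, *bam*, *bgcn* and *orb* in mxcmbn1 stood beside this difference. In mxcG43, where *vas* and *bam* were also lower, 1 of the 13 was at least 2-fold lower, near the 6.80% of all counted entries. That gene was *dj*, at 0.318 times wild type. Of the 13, 0 were above wild type in mxcG43. Their median log2 ratio was -0.39 there, against -0.05 over all counted entries. The part of the number of spermatocytes in these levels was not tested.

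Haemocyte genes moved in the other direction. All 7 were higher in mxcmbn1 than in wild type, 6 of them at least 2-fold where 15.5% of all counted entries were, and their summed FPKM was 167 in wild type, 165 in mxcG43 and 940 in mxcmbn1. The ratios ran from 1.57 for *crq*, 3.67 for *srp* and 5.78 for *eater* to 8.64 for *He*, 8.86 for *Hml* and 34.1 for *nimC1*. In mxcG43, 1 of the 7 was at least 2-fold higher, where 6.42% of all counted entries were. This was *nimC1*, at 3.20 times wild type, and 0 were lower, where 6.80% were. *nos*, *zpg* and *piwi* were also higher in mxcmbn1, and the part of haemocytes in their levels was not tested. Among 6 markers used for somatic gonadal cells, *zfh1* and *Socs36E* were 6.88 and 6.48 times as high in mxcmbn1 as in wild type, *eya* was at 0.231 times, and *chinmo* and *Fas3* lay within 2-fold at 1.60 and 0.673. Most genes of that list are also expressed in other larval tissues. *upd1*, the ligand made by the hub and listed as *os*, had an FPKM of 0.386, 0.719 and 0.406.

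In somatic cells, germline genes are kept silent by repressor complexes. *l(3)mbt* is known for this role, since larval brains of flies without it form tumours that express germline genes. Of 8 such repressor genes, 1 was at least 2-fold higher in mxcmbn1 than in wild type and 0 were lower, where 15.5% and 25.8% of all counted entries were, so 1 higher gene of 8 is near the share over the whole table. This was *l(3)mbt* itself, with an FPKM of 2.07 in wild type, 3.06 in mxcG43 and 5.68 in mxcmbn1, 2.75 times wild type. *mip130* and *mip120* were at 1.63 and 1.56 times, *Rbf2* at 1.17 times, and the lowest ratios were 0.609 for *mip40* and 0.691 for *E2f2*. The proteins of these repressors were not measured here, and their part in the levels of *nos*, *zpg* and *piwi* was not tested.

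Genes with the most similar pattern were sought for 4 of the genes among entries of a single gene with an FPKM of at least 1 in any library, by the distance between their pairs of log2 ratios to wild type over the 3 libraries. For *nos* these were *CG41320* (distance 0.04), *Listericin* (0.06) and *kz* (0.08), with 10 entries within 0.25. For *piwi* they were *CR43417* (0.02), *rost* (0.03) and *CG32521* (0.05), with 51 entries that near. *vas* was closest to *Zip3* (0.06), *Rh5* (0.09) and *CG12715* (0.10), and *bam* to *CG32582* (0.09), *CG4880* (0.13) and *CG43182* (0.14). Over 3 libraries such nearness is easily met.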

How the data were processed

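Total RNA of whole male 3rd instar larvae was sequenced by the authors as single-end reads of 51 bp, with 1 library each for Canton S, mxcG43 and mxcmbn1. The authors checked reads with FastQC 0.11.5, used TopHat 2.0.6 for alignment to BDGP5 and Cufflinks for quantification, both with default parameters and no strand setting stated, and deposited FPKM values for 15185 entries. The gene annotation and the read filter are not given in the sources used here. Loci in the file start from 0, since 3424 widths equalled those of BDGP6 genes on that reading and 92 on the other, and starts are printed from 1.

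Plain FPKM ratios were taken, and a gene was counted as higher or lower at 2-fold where the higher library reached an FPKM of 1. Medians used log2 (FPKM + 0.1). Whole reads, up to 300 in a library, were sought within a relative tolerance of 2e-05. They were used for other listed genes only where they lay within 1.25-fold of the length-based estimate, and the scale of that estimate came from 510 genes with 1 transcript. BDGP6 and RefSeq (Release 6) served only for names, transcript lengths and exon overlaps. Of the fixed lists, 1 spermatocyte gene, *rye*, was not matched. The members and lists were chosen with earlier results of these data known. The genes named are the 9 members, the 4 (piRNA list) or 3 (other lists) highest and lowest ratios of mxcmbn1 to wild type, and the nearest patterns. *krimp*, *del*, *qin*, *rhi*, *spn-E*, *osk*, *upd1* and *brp* were added once their values were known. Scripts were tested on simulated counts and ran under Python 3.11.15 (pandas 2.3.3, numpy 2.4.6, matplotlib 3.10.9, scipy 1.17.1). Alternatives covered the minimum FPKM, fold, pseudocount, rescaling and shared loci.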

Additional observations from a re-analysis of the deposited data

Results flagged for a closer look

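The mutants lay at least 1.5-fold from wild type in opposite directions for 3 of the listed genes, and with 1 library of each these differences were not tested. *fs(1)Yb* was at 0.516 times wild type in mxcG43, on 5 and 10 reads (95% Clopper-Pearson interval 0.138 to 1.66), and at 7.60 times in mxcmbn1. *rhi* was at 0.163 times in mxcG43 and at 1.55 times in mxcmbn1, the latter with an interval from 0.879 to 2.84, in a locus shared with 3 other entries. *ovo* was at 1.82 times in mxcG43 and at 0.389 times in mxcmbn1, on about 157, 276 and 83 estimated reads in wild type, mxcG43 and mxcmbn1.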

How the results depend on the processing

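No paired analysis was possible because each genotype has 1 library. Counts of the 9 genes that were higher and lower are given in that order. For mxcmbn1 to wild type they were 3 and 3, and both became 1 with a minimum FPKM of 5. For mxcG43 to wild type, 1 and 2 became 0 and 1 with that minimum, 0 and 0 at 4-fold, and 0 and 1 with a pseudocount of 1, and without a minimum 2 genes were higher because *tj* was added. For mxcmbn1 to mxcG43, 4 and 2 became 2 and 1 with a minimum of 5, 1 and 1 at 4-fold, and 2 and 1 with a pseudocount of 1, and 4 genes were lower without a minimum. Without the 6 genes that share a locus, the higher and lower counts were 0 and 0 against wild type in both mutants, and 1 and 0 between the mutants. The median log2 ratio of mxcG43 to wild type changed sign on rescaling by the upper quartile, to 0.0064. Each rescaling left all 6 counts within 1.5 times. Of 81 single-gene ratios under alternatives, 12 moved by more than 1.5 times, all with a pseudocount of 1, and 0 of the ratios past 2-fold changed direction. With alternatives chosen after seeing the data, the 6 further piRNA genes higher in mxcmbn1 became 2 with a minimum FPKM of 5. Levels resting on a few reads, those of *tj*, *vas* in mxcmbn1 and *moon* in wild type, limit what depth can show.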

Other observations

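For 8 genes of the microRNA and siRNA pathways, the ratios of mxcmbn1 to wild type ran from 0.536 to 1.71. None was at least 2-fold higher or lower, where 15.5% and 25.8% of all counted entries were, and the median log2 ratio was 0.12. *AGO2*, the Argonaute of siRNAs, had an FPKM of 32.4 in wild type, 34.5 in mxcG43 and 53.5 in mxcmbn1, 1.65 times wild type. *Dcr-1*, which makes microRNAs, was at 1.71 times and *drosha* at 1.36 times, and the lowest ratios were 0.536 for *loqs*, 0.879 for *pasha* and 1.03 for *r2d2*.

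All 6 markers of the larval central nervous system were lower in mxcmbn1 than in wild type, 3 of the 5 that could be counted at least 2-fold, where 25.8% of all counted entries were. The neuroblast genes *wor*, *ase* and *dpn* were at 0.316, 0.469 and 0.486 times, and the neuronal genes *elav* and *nSyb* at 0.537 and 0.790 times, while *brp*, under an FPKM of 1 in both libraries, was at 0.661 times. Of 5 imaginal disc genes 2 were at least 2-fold lower, *Dll* at 0.233 and *rn* at 0.454 times wild type, and *ap*, *vg* and *nub* were at 0.903, 1.42 and 1.46 times. In mxcG43 none of these 11 genes was at least 2-fold from wild type, where 6.42% of all counted entries were higher and 6.80% lower. With 11 genes, this count does not set them apart.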
